A study of Mus musculus with 9 samples.

Results

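The 9 genes described here encode enzymes and a transporter through which the liver makes, burns and stores glucose: phosphoenolpyruvate carboxykinase (Pck1), the catalytic subunit of glucose-6-phosphatase (G6pc), fructose-1,6-bisphosphatase (Fbp1), pyruvate carboxylase (Pcx), liver pyruvate kinase (Pklr), the liver form of the bifunctional enzyme that makes and degrades fructose-2,6-bisphosphate (Pfkfb1), liver glycogen synthase (Gys2), liver glycogen phosphorylase (Pygl) and the glucose transporter GLUT2 (Slc2a2). They were chosen by name as 9 of the 17846 genes listed, and all 9 had enough reads to be among the 13619 genes tested. RNA was sequenced from the livers of 9 male wild-type mice (strain C57/BL in the labels, C57BL/6 in the methods), 1 library per mouse, in 3 groups of 3. Control mice ate normal chow and were sedentary. NASH mice ate the Ath diet, an atherogenic diet with added cholesterol and cholate that produces steatohepatitis, for 20 weeks and were sedentary. NASH+Exercise mice ate the Ath diet for 12 weeks before they trained on a treadmill for 8 weeks. The paper names this group as Ath diet with training, but does not separately state the diet during those 8 weeks. In its scheme, training and the matching sedentary period both start at 20 weeks of age. All were fasted overnight before the liver was taken, so every level below is a fasting level. The Ath diet was compared without and with training, and there was no group that trained on chow.

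In the fasted liver, gluconeogenesis turns lactate, amino acids and glycerol into glucose. Pcx makes oxaloacetate from pyruvate, Pck1 turns it into phosphoenolpyruvate, Fbp1 removes a phosphate from fructose-1,6-bisphosphate, and G6pc releases free glucose, which leaves the hepatocyte through GLUT2. Glucagon raises and insulin lowers transcription of Pck1 and G6pc, whereas feeding raises Pklr, which works in the direction of glycolysis. Glycogen is built by Gys2 and broken down by Pygl, both of which are regulated largely by phosphorylation of the protein, a layer that RNA levels do not show.

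The Pck1 and G6pc promoters are among the most studied hormone-responsive promoters of the liver, and with Fbp1 they are the 3 gluconeogenic members that were called against Control in at least 1 comparison. Each is shown 5′ to 3′ on the strand of its gene, from 250 bases before to 50 bases after the start (RefSeq, GRCm38.p6), in lower case. Capitals mark matches to any of 6 short motifs searched on both strands.
Pck1 promoter, chr2:173152823-173153122, plus strand: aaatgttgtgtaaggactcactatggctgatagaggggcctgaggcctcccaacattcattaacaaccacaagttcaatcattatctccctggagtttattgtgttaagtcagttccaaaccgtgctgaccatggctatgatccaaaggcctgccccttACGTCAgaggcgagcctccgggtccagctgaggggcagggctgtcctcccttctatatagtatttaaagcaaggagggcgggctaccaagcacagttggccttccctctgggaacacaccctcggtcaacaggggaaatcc
G6pc promoter, chr11:101367466-101367765, plus strand: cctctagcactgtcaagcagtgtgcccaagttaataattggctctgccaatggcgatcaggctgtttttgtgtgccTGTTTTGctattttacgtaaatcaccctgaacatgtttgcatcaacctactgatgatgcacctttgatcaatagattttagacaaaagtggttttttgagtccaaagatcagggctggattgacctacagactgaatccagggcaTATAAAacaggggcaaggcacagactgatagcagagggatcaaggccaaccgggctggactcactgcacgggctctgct
Fbp1 promoter, chr13:62888233-62888532, minus strand: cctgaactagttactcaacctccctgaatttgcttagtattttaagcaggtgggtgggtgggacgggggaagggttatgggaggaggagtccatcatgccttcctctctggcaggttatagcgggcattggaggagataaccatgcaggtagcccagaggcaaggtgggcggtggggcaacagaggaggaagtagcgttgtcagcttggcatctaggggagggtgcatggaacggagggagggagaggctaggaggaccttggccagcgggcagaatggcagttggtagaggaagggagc

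The capitals in Pck1 are the core of the cAMP response element, ACGTCA, 91 bases before the start. These letters were found in 7.55% of the 32544 mouse promoters of the same length. The capitals in G6pc are the insulin response element core TGTTTTG, 174 bases before the start (6.32% of promoters), and the TATA box letters TATAAA, 29 bases before it (13.6%). The Fbp1 window held none of the 6, which besides these 3 were the FoxO core GTAAACA (3.66% of promoters), the E-box CACGTG (7.17%) and AAAGTCC (4.23%), part of a site for the nuclear receptor HNF4. A match is a description of the letters only. Promoters of 8 of the 9 genes were in the table, and Gys2 was the one without an entry.

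Reads were given per gene as estimated counts, and the total per mouse was between 20086004 and 22495449. Levels of one gene across mice are given as CPM, that is counts relative to the library total after TMM scaling. The TMM factors of the Control libraries (0.80 to 0.976) lay below those of the NASH libraries (1.09 to 1.23), and the NASH+Exercise libraries (0.912 to 1.08) overlapped with Control. Levels of different genes are compared only as TPM, which also allow for transcript length. "Changed" means an adjusted p under 0.05 by the quasi-likelihood test of edgeR, adjusted by the method of Benjamini and Hochberg over all genes tested, with all 9 mice in 1 fit. The errors of log2 fold changes are standard errors. The labels do not say whether mice of a group shared a cage or a day, so the p-values measure the spread between these mice.

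The tissue was checked against 8 hepatocyte markers (Alb, Ttr, Apoa1, Apob, Trf, Serpina1c, Fgb and Hnf4a), all of them detected, whose summed level was 137056 to 161914 CPM in the Control mice, 95344 to 131497 in the NASH mice and 117484 to 137716 in the NASH+Exercise mice. Alb alone made up 87731 to 101864 CPM of the Control sums. Of the 8, 2 were lower and 0 higher in NASH than in Control, but with scaling by library size alone 0 were lower and 2 higher. In NASH+Exercise against Control 0 were lower and 2 higher. NASH replicate 19 stood apart, with the lowest hepatocyte sum and a cholangiocyte marker sum of 395 CPM against 107 and 121 in the other NASH mice. Without it, a choice made after the data were seen, both hepatocyte marker calls in NASH were lost and 1 of 5 cholangiocyte markers was called there. Macrophage markers summed to 88.4 to 160 CPM in the Control mice, 995 to 1136 in the NASH mice and 760 to 895 in the NASH+Exercise mice, and 8 of 8 were higher in both diet groups than in Control. Neutrophil and T and NK cell markers were also higher in both (5 of 5 each), as were 4 of 6 stellate cell, 3 of 5 cholangiocyte and 3 of 5 sinusoidal endothelial cell markers in NASH. Of 4 erythroid markers 1 was higher in NASH, and of 4 B cell markers edgeR called 0 (1 at an unadjusted p under 0.05). Of skeletal muscle markers none was expressed enough to be tested, and the single pancreas marker tested was lower in NASH. Where a gene is lower in whole liver, fewer hepatocytes and less RNA per hepatocyte cannot be told apart, and the size of the difference also depends on the scaling. The part of the added immune RNA in the values below was not tested.

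By transcripts, the gluconeogenic enzymes stood highest in Control liver. Mean TPM was 2185 ± 569 (SD, n = 3) for Pck1, 1071 ± 130 for Fbp1, 498 ± 91.2 for G6pc and 196 ± 34.6 for Pcx. Pygl (123 ± 12.4) and Gys2 (114 ± 45.1) followed and overlapped between mice. Slc2a2 was at 75.1 ± 1.0, Pklr at 51.6 ± 8.94 and Pfkfb1 at 20.7 ± 3.57, with no overlap between any of these 3. In both diet groups the distance between the top and the rest was narrower. In NASH, Pck1 was at 1380 ± 487 TPM and Fbp1 at 620 ± 24.6. There G6pc at 168 ± 99.4 overlapped with Pcx (191 ± 17.1) and Pygl (157 ± 22.4). In NASH+Exercise, Pck1 was at 706 ± 410 TPM and Fbp1 at 563 ± 29.7, and these overlapped. G6pc at 106 ± 22.9 was below Pcx (158 ± 12.8) and Pygl (182 ± 23.6) there. Together the 9 genes took 0.619% ± 0.0740 of all counts in the Control mice, 0.391% ± 0.0911 in the NASH mice and 0.289% ± 0.0834 in the NASH+Exercise mice (SD, n = 3 each). These shares are of counts without TMM scaling and weigh the most abundant gene most. Pck1, the highest of the 9 in mean CPM in every group, was at 3840, 1850 and 1183 CPM in turn. It was not called between the diet groups (edgeR, adjusted p = 0.532).

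**Figure D1:**
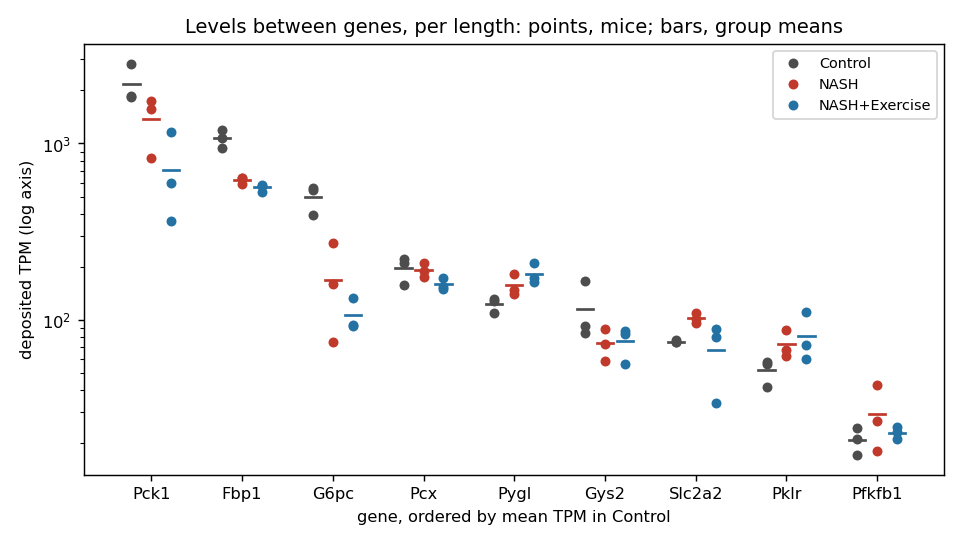
Level of each of the 9 genes in each mouse in TPM on a log axis, with genes on the x axis points for mice coloured by group, and bars for group means. Pck1 is highest in Control at a mean of 2185 TPM, Pfkfb1 is the lowest gene at 20.7, and G6pc falls from 498 in Control to 106 in NASH+Exercise.

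NASH was compared with Control to see which of these genes differ in the livers of sedentary mice on the Ath diet. G6pc, Fbp1 and Gys2 were lower in NASH, to between 25.0 and 49.0% of the Control level, and no gene was higher. All 3 were also past a log2 fold change of 1. Thus 3 of 9 changed, each of them lower, where 14.4% of all genes tested were called lower and 35.6% in either direction. With the fold threshold added, 3.03% of all genes were lower. In 4 members, these 3 and Pck1, every NASH mouse lay below every Control mouse in CPM, as in 22.2% of all genes. The median log2 fold change of the 9 was -0.48, and that of all genes 0.01.

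G6pc makes the last step to free glucose. Its level was 821, 991 and 529 CPM in the Control mice, 316, 78.2 and 190 in the NASH mice, and 115, 188 and 144 in the NASH+Exercise mice. Every Control mouse was above every mouse on the diet, and NASH mice spread 4.05-fold. The lowest, NASH replicate 19, is the mouse whose marker sums stood apart. In CPM it was also the lowest NASH mouse for every other member except Pfkfb1, for which it was the highest. The log2 fold change of G6pc in NASH over Control was -2.0 ± 0.45 (adjusted p = 0.00791), and without NASH replicate 19 it was -1.66 (adjusted p = 0.00702). Fbp1 and Gys2, described next, kept their calls without that mouse too (-1.17 and -0.88, adjusted p = 0.00194 and 0.0304).

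Fbp1 catalyses the bisphosphatase step opposite to phosphofructokinase. It was measured at 924, 1237 and 1047 CPM in Control, at 477, 404 and 494 in NASH, and at 471, 486 and 581 in NASH+Exercise. The groups on and off the diet were far apart and each was tight, with the highest mouse at most 1.34 times the lowest. Fbp1 fell by 1.22 ± 0.16 on the log2 scale in NASH (adjusted p = 0.000247).

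Gys2 adds glucose to glycogen. Its levels were 163, 175 and 262 CPM in Control, 99.0, 71.9 and 123 in NASH, and 126, 93.1 and 151 in NASH+Exercise. In CPM no diet mouse reached the lowest Control mouse. In TPM, NASH replicate 20 (88.3) and trained replicate 8 (86.5) lay above Control replicate 4 (84.2). Gys2 was lower in NASH by edgeR with TMM (log2 fold change -1.03 ± 0.25, adjusted p = 0.0103), but this call depended on the scaling, since with library size alone it was -0.71 (adjusted p = 0.0583) and on log2(TPM + 1) -0.59 (adjusted p = 0.102).

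Pck1, the enzyme that commits oxaloacetate to glucose, was at 3280, 3804 and 4436 CPM in Control, 2105, 1012 and 2431 in NASH, and 855, 600 and 2095 in NASH+Exercise. The NASH mice were all below the Control mice, yet the spread inside the diet groups was up to 3.49-fold. In NASH against Control the log2 fold change was -1.05 ± 0.46 (95% interval -2.08 to -0.03), which missed the threshold (adjusted p = 0.101). It passed when only these 6 mice were fitted, by edgeR (adjusted p = 0.0306) and by DESeq2 (adjusted p = 0.000858), and when NASH+Exercise replicate 22 was left out (adjusted p = 0.0232). Over all alternatives tried, the Pck1 difference ran from -1.30 to -0.70, with an adjusted p of up to 0.247. Estimated counts of Pck1 were not whole in any of the 9 libraries, so some of its reads were shared with other genes.

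Pcx, the mitochondrial entry enzyme, was at 435, 720 and 517 CPM in Control, 446, 337 and 415 in NASH and 395, 396 and 429 in NASH+Exercise. Control replicate 3 lay below NASH replicate 5, so the Control and NASH groups overlapped. The difference of -0.48 ± 0.19 on the log2 scale did not pass (adjusted p = 0.0714). It did with DESeq2 on all 9 mice (adjusted p = 0.0390) and without Control replicate 3 (adjusted p = 0.0324). Over all alternatives tried, the Pcx difference ran from -0.64 to -0.025, with an adjusted p of up to 0.889. Mean TPM of Pcx was 196 in Control and 191 in NASH.

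The glycolytic members, Pygl and Slc2a2 gave no call in NASH against Control, and their groups overlapped. Pklr, which turns phosphoenolpyruvate into pyruvate, was at 101, 120 and 65.7 CPM in Control, 120, 77.7 and 95.3 in NASH, and 105, 101 and 202 in NASH+Exercise. Its NASH over Control difference was 0.03 on the log2 scale, with an interval of -0.65 to 0.72 that holds changes of either sign. Pfkfb1, which sets the level of the glycolytic activator fructose-2,6-bisphosphate, was at 27.0, 37.3 and 19.1 CPM in Control, 17.6, 37.5 and 25.8 in NASH, and 22.7, 27.8 and 32.5 in NASH+Exercise. All 3 groups covered much the same range, and the difference was -0.04 (-0.71 to 0.62).

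Slc2a2 was at 132, 151 and 114 CPM in Control, 126, 120 and 150 in NASH, and 126, 54.6 and 142 in NASH+Exercise. One trained mouse, replicate 18, stood below the other 8. The NASH over Control difference was -0.0014 with an interval of -0.66 to 0.65. Pygl, which releases glucose-1-phosphate from glycogen, was at 242, 293 and 183 CPM in Control, 265, 195 and 210 in NASH, and 268, 291 and 406 in NASH+Exercise, and its NASH over Control difference was -0.10 (-0.57 to 0.37). For Pfkfb1, Pygl and Slc2a2 the sign of this difference turned with library-size scaling (0.36, 0.26 and 0.36), under which the median of all genes moved to 0.36 as well.

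**Figure D2:**
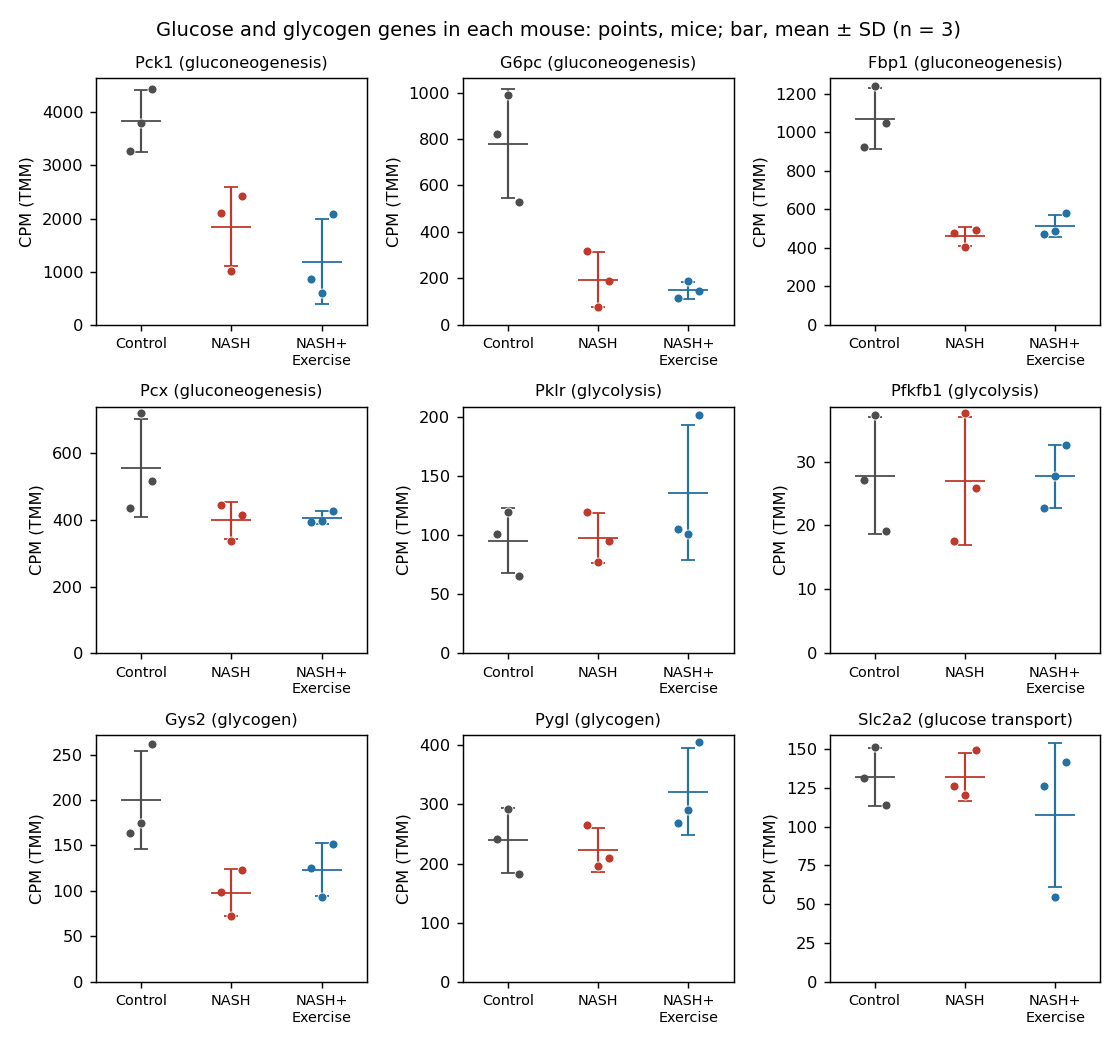
CPM of each gene in each of the 9 mice (1 panel per gene, points for mice, bars for the group mean ± SD). In G6pc, Fbp1, Gys2 and Pck1 all 3 Control mice lie above all NASH mice, and in Pklr, Pfkfb1, Pygl and Slc2a2 the Control and NASH mice overlap.

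NASH+Exercise was compared with NASH to see whether training on the Ath diet went with a different level. No member changed by edgeR (0 of 9, where 0.162% of all genes were called), nor by DESeq2 or under any other setting tried. The unadjusted p was under 0.05 for 1 of the 9, Pygl. Its 3 trained mice (268, 291 and 406 CPM) were all above the 3 NASH mice (265, 195 and 210), with only 268 against 265 between the nearest. The log2 fold change was 0.53 ± 0.21 (interval 0.06 to 1.0, adjusted p = 0.276), and 9.16% of all genes had trained mice wholly above NASH mice.

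The intervals of this comparison show how much could have been missed. For Pck1 the difference was -0.64 (-1.66 to 0.37, adjusted p = 0.532) and for G6pc -0.39 (-1.37 to 0.60, adjusted p = 0.730). These were wide, and the sign for G6pc depended on NASH replicate 5, without which it was 0.16. For Fbp1 the interval was narrower, -0.19 to 0.51 around 0.16, so that a rise of 1.22, the whole difference between Control and NASH, lay outside it. For Gys2 the difference was 0.33 (-0.23 to 0.89) and for Pcx 0.03 (-0.39 to 0.44). Pklr was 0.48 higher (-0.21 to 1.16), which came mostly from trained replicate 22 at 202 CPM, and without that mouse the difference was 0.08. For Slc2a2 the difference was -0.30 (-0.95 to 0.36) and without trained replicate 18 it was 0.02.

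NASH+Exercise was also set beside Control. This comparison shares its Control mice with the first one and its trained mice with the second, so it is not a separate test of either. G6pc, Fbp1 and Pck1 were lower than in Control, to 19.1, 48.0 and 30.8% of its level, and no member was higher (3 of 9 changed, all lower, where 9.58% of all genes were called lower and 25.1% in either direction). All 3 were past a log2 fold change of 1, as were 3.07% of all genes in the lower direction. In CPM, groups did not overlap for 5 members, these 3 with Gys2 and Pcx, where 17% of all genes lay wholly lower. In TPM, Gys2 and Pcx did overlap, Pcx with 173 in trained replicate 8 against 156 in Control replicate 3.

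For G6pc the log2 fold change of NASH+Exercise over Control was -2.39 ± 0.46 (adjusted p = 0.00478) and for Fbp1 it was -1.06 ± 0.16 (adjusted p = 0.000878). Both kept their calls under every setting tried and with any 1 mouse left out. For Pck1 it was -1.70 ± 0.46 (adjusted p = 0.0243). The Pck1 call rested on single mice, with an adjusted p of 0.0645 without Control replicate 4, 0.0652 without Control replicate 29, 0.0904 without trained replicate 8 and 0.0625 without trained replicate 18. Gys2 differed by -0.70 ± 0.25 (adjusted p = 0.0687) and Pcx by -0.46 ± 0.19 (adjusted p = 0.108). Gys2 passed by DESeq2 with 9 mice (adjusted p = 0.0282), with 6 mice (0.0234) and without NASH replicate 19 (0.0450). Pygl was 0.43 ± 0.21 above Control (adjusted p = 0.175) and was called higher with library-size scaling (0.58, adjusted p = 0.0202) and on log2(TPM + 1) (0.56, adjusted p = 0.0155).

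**Figure D3:**
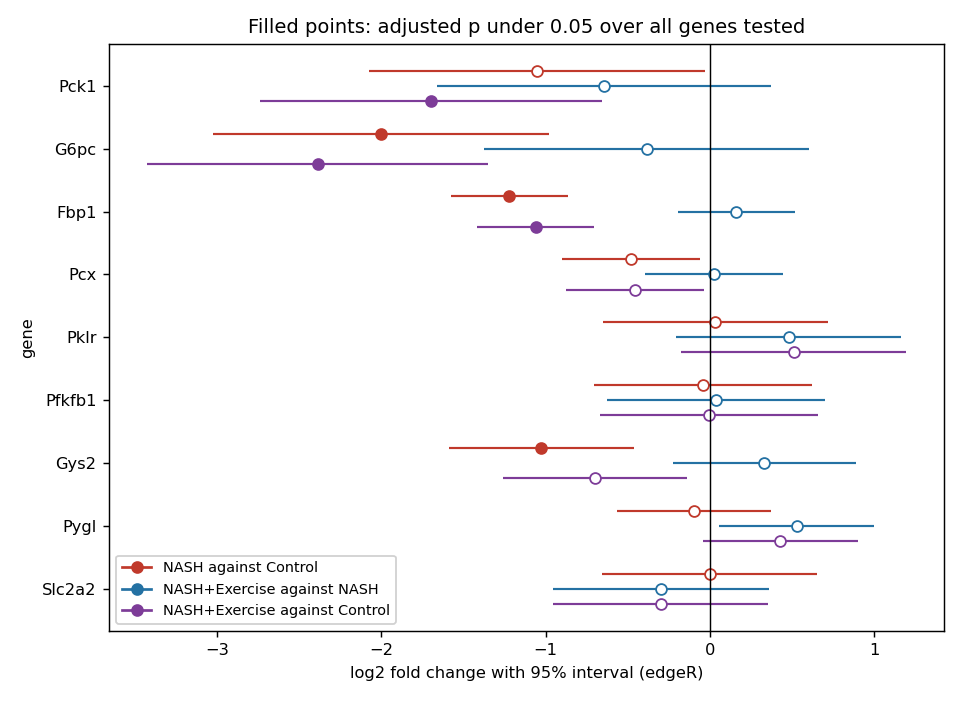
Log2 fold change of each gene in the 3 comparisons (points) with 95% confidence intervals (lines), from the edgeR fit of 9 mice. Filled points are adjusted p values under 0.05, namely G6pc, Fbp1 and Gys2 in NASH against Control and G6pc, Fbp1 and Pck1 in NASH+Exercise against Control, and none is filled in NASH+Exercise against NASH.

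By role, of the 4 gluconeogenic genes, 2 were lower in NASH and 3 in NASH+Exercise than in Control, and Pcx was called in neither. None of the 2 glycolytic genes was called in any comparison. Of the 2 glycogen genes, the synthase was lower in NASH and the phosphorylase was not called, and their TPM ratio (Gys2 over Pygl), chosen after the values were seen, was 0.965 ± 0.492 in the Control mice, 0.476 ± 0.135 in the NASH mice and 0.414 ± 0.0804 in the NASH+Exercise mice (SD, n = 3). Control replicate 29 at 1.53 made the Control spread wide, and the other Control mice, at 0.724 and 0.640, were above every diet mouse, of which the highest was 0.632.

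Across the 9 mice, log2 CPM of G6pc and Fbp1 had a Pearson correlation of 0.90 and that of Pygl and Pklr 0.94, while Pygl and Gys2 stood at -0.03. These values are descriptions over 9 mice of 3 groups and hold the difference between groups as well as that between mice. The genes whose pattern was most like that of Fbp1 were Suox, Fitm2 and Eif4a1 (0.994 to 0.997), and for G6pc they were Ubr4, Ppp2cb and Caln1 (0.984 to 0.991). For Pck1 they were Mfsd2a, Lpin2 and Scamp1 (0.956 to 0.976), and for Gys2 Hsd17b11, Pard3 and Apmap (0.953 to 0.964).

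The other genes of glucose metabolism were taken from lists by role, 123 tested in all. In NASH 20 of them were higher and 35 lower than in Control by edgeR with TMM, a split that turned to 29 higher and 17 lower with library-size scaling, under which the calls over all genes went from 2886 higher and 1960 lower to 4489 higher and 633 lower. In NASH+Exercise against Control 20 were higher and 27 lower. Without NASH replicate 19 there were 16 higher and 27 lower in NASH. Of all genes tested, 35.6% were called in NASH against Control and 14.4% were called lower. In NASH+Exercise against Control these shares were 25.1% and 9.58%. The lists of other glycolysis genes, other glycogen genes and regulators, given below, were called in NASH at a rate near 35.6%. In NASH against Control, genes named in what follows had the same sign and kept their call with library-size scaling and on log2(TPM + 1), except where stated.

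Of the 19 other gluconeogenesis genes, 13 were lower in NASH and 1 was higher (6 and 2 with library-size scaling, 9 and 1 without NASH replicate 19). The cytosolic glycerol-3-phosphate dehydrogenase Gpd1 was at 637 to 808 CPM in the Control mice, 206 to 258 in the NASH mice and 190 to 232 in the NASH+Exercise mice, a change of -1.68 in NASH. The dicarboxylate carrier Slc25a10 changed by -1.47, and Mpc2, a subunit of the carrier that brings pyruvate into mitochondria, by -0.86. The one gene that rose was Pck2, the mitochondrial form of phosphoenolpyruvate carboxykinase, by 0.88, from 3.88 to 7.15 CPM. In NASH+Exercise against Control 9 of the 19 were lower and none higher, with Gpd1 at -1.79, Slc25a10 at -1.51 and glycerol kinase (Gk) at -1.47. Gk was lower in NASH as well (-1.08, adjusted p = 0.00132), but not on log2(TPM + 1) (-0.63, adjusted p = 0.0704).

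Of the 26 other glycolysis genes, 7 were higher and 3 lower in NASH. Isoforms known mainly from cells other than hepatocytes were among those that rose: the hexokinase Hk2 from 0.583 to 5.91 CPM (log2 fold change 3.32), the muscle and broadly expressed pyruvate kinase Pkm from 12.3 to 70.4 (2.51) and the platelet-type phosphofructokinase Pfkp from 2.18 to 9.42 (2.11). All 3 NASH mice were above all Control mice in Pkm and Hk2, and the macrophage markers given above were higher in the same mice. The part of those cells in this change was not tested. Among the enzymes that fell were the phosphoglycerate kinase Pgk1, from 240 to 145 CPM (-0.73), and the enolase Eno1, from 585 to 332 CPM (-0.82), both of which work in either direction of the pathway. Pkm and Hk2 also rose in NASH+Exercise against Control (1.84 and 2.76).

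Among 24 other glycogen genes, 4 were higher and 3 lower in NASH. The brain-type phosphorylase Pygb rose by 1.84 to 9.47 CPM, the glycogen primer glycogenin (Gyg) by 1.37 to 8.90 and the phosphoglucomutase Pgm2 by 1.06 to 8.39. Another phosphoglucomutase, Pgm1, fell by 0.85 to 154 CPM. The lysosomal glucosidase Gaa (-0.71) and the kinase Gsk3a (-0.52), which acts on glycogen synthase, were lower too, but on log2(TPM + 1) neither passed (adjusted p = 0.0775 and 0.499), and Gsk3a did not with library-size scaling either (0.150). Of 7 other glucose transporters, Slc2a6, Slc2a3 and Slc2a4 were higher in NASH (2.95, 1.72 and 2.48) with group means of 1.22 to 3.19 CPM in NASH. The call of Slc2a4 was lost without Control replicate 4 (adjusted p = 0.0534), NASH replicate 5 (0.0504) or NASH replicate 19 (0.0634). Of 8 genes by which fructose and galactose enter, 1 was higher (the aldose reductase Akr1b3, 1.68) and 2 lower (Galt, -0.46, and Sord, -0.71, both without a call under library-size scaling and with some single mice left out).

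Pyruvate dehydrogenase and the enzymes that switch it, 12 genes, had 8 lower and 2 higher in NASH (3 and 2 with library-size scaling). Pdk4, the fasting-induced kinase that shuts the complex and so spares pyruvate, had the lowest fold of them. Its levels were 207, 110 and 87.2 CPM in Control, 6.94, 2.25 and 8.88 in NASH, and 1.70, 1.65 and 1.02 in NASH+Exercise. The groups followed each other with no overlap, and the change was -4.49 in NASH (adjusted p = 0.000162) and -6.52 in NASH+Exercise (adjusted p = 7.87e-05), both against Control. Between the diet groups edgeR did not call Pdk4. The share of all genes with trained mice wholly below NASH mice is not given here. The phosphatase Pdp2 (-1.39) and the kinase Pdk1 (-1.07) were lower in NASH as well, and Pdk3 was higher (2.87, at 1.45 CPM).

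Of 27 receptors and regulators of these genes, 6 were lower and 2 higher in NASH. Srebf1, which encodes the lipogenic factor SREBP1, was at 44.8, 59.3 and 59.6 CPM in Control, 215, 205 and 204 in NASH, and 312, 313 and 468 in NASH+Exercise (1.93 and 2.74 over Control). Txnip, which restrains glucose uptake and is induced by glucose, ran the other way at 337, 334 and 244, then 107, 63.7 and 107, then 49.0, 41.1 and 56.5 (-1.72 and -2.64). In both genes the 3 groups did not overlap, but edgeR called neither between the diet groups. Of all genes, 9.16% had trained mice wholly above NASH mice, as Srebf1 did. The fasting-activated factor Creb3l3 was lower in both diet groups (-1.01 and -1.0).

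In NASH+Exercise against NASH, edgeR called 0 of the 123 genes, with 23 at an unadjusted p under 0.05 and a smallest adjusted p of 0.122. DESeq2 called 4 with all 9 mice, namely Srebf1 higher (0.83, adjusted p = 0.00458) and Pdk4 (-2.03, 0.0289), Txnip (-0.91, 0.0115) and Pkm (-0.66, 0.0124) lower. With the 6 mice alone it called 8, of which 4 were higher and 4 lower. Over all genes, DESeq2 called 316 with 9 mice and 521 with 6, where edgeR called 22. With limma on log2(TPM + 1) Txnip (-1.17, adjusted p = 0.0318), Pkm (-0.96, 0.0411) and Galk1 (-0.60, 0.0478) were lower, and on log2(TPM + 0.1) Txnip was (-1.19, 0.0392). Over all genes, limma called 305 and 30 in turn.

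Liver zonation was read from lists of genes of the periportal zone, where gluconeogenesis is strongest, and the pericentral zone, where glycolysis is. Both were lower in NASH, with 6 of 11 periportal genes (Asl -2.0, Gls2 -1.11, Hal -0.80) and 9 of 13 pericentral genes (Oat -1.84, Cyp2e1 -1.20, Slc1a2 -0.94) called lower and none higher, which became 4 lower, and 7 lower with 2 higher, with library-size scaling. Their median log2 fold changes were -0.69 and -0.93. The call of Hal was lost on log2(TPM + 1) (adjusted p = 0.0533). In NASH+Exercise against Control, 5 periportal genes were lower, and of the pericentral genes 5 were lower and 2 higher, among the latter Rgn (0.62). The call of Rgn was lost without Control replicate 29 (adjusted p = 0.0782) and without trained replicate 18 (0.0709) or 22 (0.0608). In NASH+Exercise against NASH, edgeR called no gene of either list. There 13 of 13 pericentral genes had a log2 fold change above 0 (median 0.42, 5 at an unadjusted p under 0.05). Of the 11 periportal genes 7 did (median 0.075, 1 under 0.05). With library-size scaling the medians were 0.21 and -0.14. DESeq2 called 2 pericentral and 0 periportal genes higher with 9 mice, and 5 and 1 with 6 mice.

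**Figure D4:**
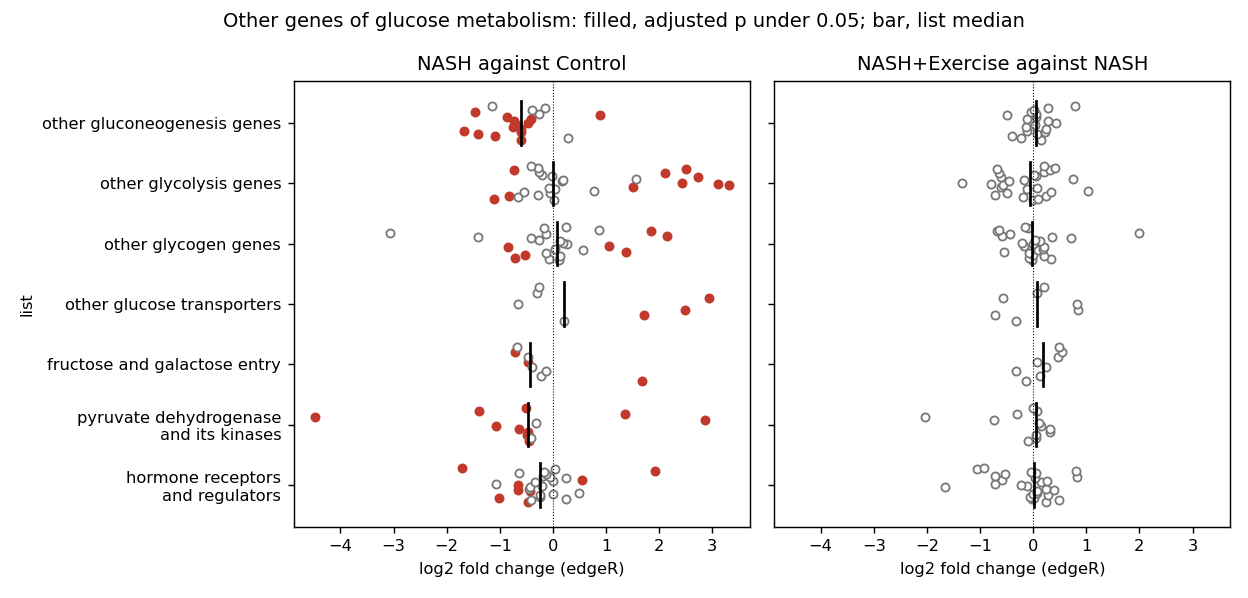
Log2 fold change of each gene of the lists by role in NASH against Control and in NASH+Exercise against NASH (points for genes, with the called genes filled, and a bar for the list median). Other gluconeogenesis genes lie mostly below 0 in NASH against Control, with 13 of 19 called lower, whereas other glycolysis genes lie on both sides, with 7 higher and 3 lower, and no gene is filled in NASH+Exercise against NASH.

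In the annotation of GRCm38.p6 the members span Pck1 at chr2:173153073-173159274, G6pc at chr11:101367716-101377903, Fbp1 at chr13:62864753-62888298, Pcx at chr19:4510472-4621752, Pklr at chr3:89136122-89146815, Pfkfb1 at chrX:150587445-150643878, Gys2 at chr6:142422612-142473130, Pygl at chr12:70190815-70227683 and Slc2a2 at chr3:28697903-28728361. Reads were counted over whole genes, so exons and isoforms were not separated. Some overlap other genes, and whether the counting used strand is not given in the sources used here. Pcx overlaps Lrfn4 (41 to 88 counts per mouse), Pklr overlaps Hcn3 (63 to 207) and Pfkfb1 overlaps Apex2 (230 to 335). Fbp1 overlaps Gm38679 and Slc2a2 overlaps 1700112D23Rik, neither of which is among the genes listed, so their counts are not known. Among members with a counted partner, Pfkfb1, with 375 to 967 counts per mouse, is the one whose partner came nearest to its own count.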

How the data were processed

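Livers of 9 mice were sequenced as RNA, 1 library per mouse. The submitters' processing notes name HISAT2 2.1.0, Bowtie2 2.2.5, RSEM 1.2.8 and GRCm38.p6, without their roles. Per gene and mouse, the authors deposited estimated counts, not normalized, and TPM and FPKM values, scaled by length and library size. The 428304 values given in 2 places had 0 differences. FPKM was not used. Symbols came from RefSeq (17728 of 17846 identifiers).

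Here counts were rounded and tested with edgeR 4.0.16 in R 4.3.3 (filterByExpr at 10 counts and a total of 15, TMM, robust quasi-likelihood fit of 9 mice, Benjamini-Hochberg over 13619 genes), with DESeq2 1.42.0, limma 3.58.1 on log2(TPM + 1) and log2(TPM + 0.1), other scalings, no filter, 6-mouse fits and each mouse left out as alternatives. The tests were also run on simulated counts in which as many genes rose as fell. That check does not cover the dependence on scaling described above, and its outcome is not given here. With 3 mice a group, the spread between mice limits precision (biological coefficient of variation 0.192). The members and gene lists were chosen with earlier results of these data known. The genes named are all members, up to 3 genes per list, direction and comparison with the smallest p, the 3 genes most correlated with a member, and markers. Genes called only by DESeq2 or in single settings were named after their values were seen. Some genes of the lists are counted but not reported by name here.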

Additional observations from a re-analysis of the deposited data

How the results depend on the processing

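Calls of G6pc and Fbp1 against Control kept their direction and threshold under every alternative and with each mouse left out. The number of members past both thresholds in NASH against Control went from 3 to 1 with library-size scaling, log2(TPM + 1) and log2(TPM + 0.1), since Fbp1 was then at -0.87, -0.78 and -0.78 and Gys2 lost its call. With 1 mouse left out, that number was 2 to 4, and in NASH+Exercise against Control it was 1 to 3, with 1 only without Control replicate 4. No member was called in NASH+Exercise against NASH in any setting.

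Signs turned only for differences that were not called. In NASH against Control, Pklr (0.03) was -0.0108 and -0.0088 with DESeq2 on 9 and 6 mice, -0.0037 with RLE scaling and -0.0077 without a filter. With library size, log2(TPM + 1) and log2(TPM + 0.1) in turn, Pfkfb1 was 0.36, 0.40 and 0.41, Pygl 0.26, 0.35 and 0.35, and Slc2a2 0.36, 0.43 and 0.44 (0.0024 with edgeR on 6 mice). In NASH+Exercise against NASH, Fbp1 was -0.044, -0.14 and -0.14, Pcx -0.17, -0.27 and -0.27, and Pfkfb1 -0.20, -0.25 and -0.26. In NASH+Exercise against Control, Pfkfb1 was 0.16, 0.14 and 0.15 (0.033 with edgeR on 6 mice). With 1 mouse left out, the ranges that crossed 0 were, in NASH against Control, Pklr -0.22 to 0.22, Pfkfb1 -0.40 to 0.21, Pygl -0.30 to 0.057 and Slc2a2 -0.14 to 0.091, in NASH+Exercise against NASH, G6pc -0.75 to 0.16, Pcx -0.063 to 0.12, Pfkfb1 -0.19 to 0.37 and Slc2a2 -0.55 to 0.022, and against Control, Pfkfb1 -0.24 to 0.28 and Slc2a2 -0.55 to 0.017. Library-size scaling moved the median of all genes from 0.01 to 0.36 in NASH against Control, to -0.23 in NASH+Exercise against NASH and to 0.15 in NASH+Exercise against Control, so these differences are relative to that shift. No paired analysis was possible because the groups share no replicate numbers.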
